A study of Rattus norvegicus with 8 samples.

Results

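The potassium channels opened by intracellular calcium or sodium were followed in rat sensory ganglia (dorsal root ganglia, strain Sprague Dawley) on day 7 of a nerve injury. The genes were Kcnma1, Kcnmb4, Kcnn1, Kcnn2 and Kcnt1, and every probe carrying 1 of these 5 symbols in the deposited table was taken, each probe kept apart. The 5 genes, of 10746 named genes measured, gave 8 probes of 22379 tested: 2 each for Kcnma1, Kcnn1 and Kcnt1, and 1 each for Kcnmb4 and Kcnn2. All 8 had a value on all 8 arrays.

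The ligation group held 4 ipsilateral samples from rats with spinal nerve ligation, an injury that elicits neuropathic pain. The control group held 4 samples that the labels call contralateral in their titles and sham-operated in their descriptions, so side of the body and operation cannot be told apart. Each sample was pooled from 2 animals, and no age, sex or transgene is given in the labels. Each sample was labelled with Cy5 and hybridised on its own array against the same Cy3-labelled pool of control RNA, with no dye swap, so a dye effect shared by all arrays cancels only in the difference between groups. All values below are log2 ratios of sample over pool unless an intensity is named, and a change is the mean ratio of ligation minus that of control.

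These channels link the ionic load of a spike to the potassium current that ends it. BK channels, whose pore is encoded by Kcnma1, open on calcium and depolarisation together. Their auxiliary beta4 subunit, encoded by Kcnmb4, is the beta subunit typical of neurons, slows BK gating and makes the channel resistant to the scorpion toxins that block it. SK channels, encoded by Kcnn1 and Kcnn2, sense calcium through bound calmodulin and carry a slower afterhyperpolarisation. Kcnt1 encodes Slack, which opens on intracellular sodium. In sensory neurons such currents are known to limit repetitive firing.

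The arrays were of like depth, with a median sample-channel intensity of 0.21 to 0.22 on the ligation arrays and 0.17 to 0.20 on the control arrays. The median probe had a mean sample intensity of 0.22. With probes split into 4 equal bins by this intensity, 4 channel probes lay in bin 1, the dimmest, 2 in bin 2, 2 in bin 3 and 0 in bin 4. Their single intensities ran between 0.02 and 0.90. Intensities were printed with 2 decimals, so each stands for anything within 0.005 of it. The range of changes that this rounding alone allows is given for each channel probe and was not computed for other genes. As a check of the labels, the injury marker Atf3 had a mean ratio of 4.15 in ligation and -0.85 in control (adjusted p = 2.85e-07, limma).

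After ligation Kcnn2 and Kcnt1 fell, Kcnmb4 rose, Kcnma1 fell on 1 of its 2 probes, and Kcnn1 rose slightly on 1 of its 2 probes. Of the 8 probes, 6 passed the test, 2 higher and 4 lower in ligation (limma, Benjamini-Hochberg adjusted p under 0.05 over all 22379 probes). Over all probes 58.6% passed, 26.4% higher and 32.2% lower. By intensity, 25.5% of all probes passed in bin 1, 59.2% in bin 2, 72.6% in bin 3 and 77.2% in bin 4, beside 3 of 4, 1 of 2 and 2 of 2 channel probes in bins 1, 2 and 3. Passing the test was thus common among all probes. At least a 2-fold change past the test was found for 4 of the 8 probes, against 8.08% of all probes. The channel genes were chosen with earlier results of these data known, so this contrast is a description and not a test. The relatives Kcnn3, Kcnn4 and Kcnmb1, measured but outside the 8 probes, did not pass. The ligation and control arrays did not overlap for 5 of the 8 probes, 1 higher and 4 lower. Of all probes with 8 values 53.4% were separated in the same way, 24.3% higher and 29.1% lower.

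**Figure D1:**
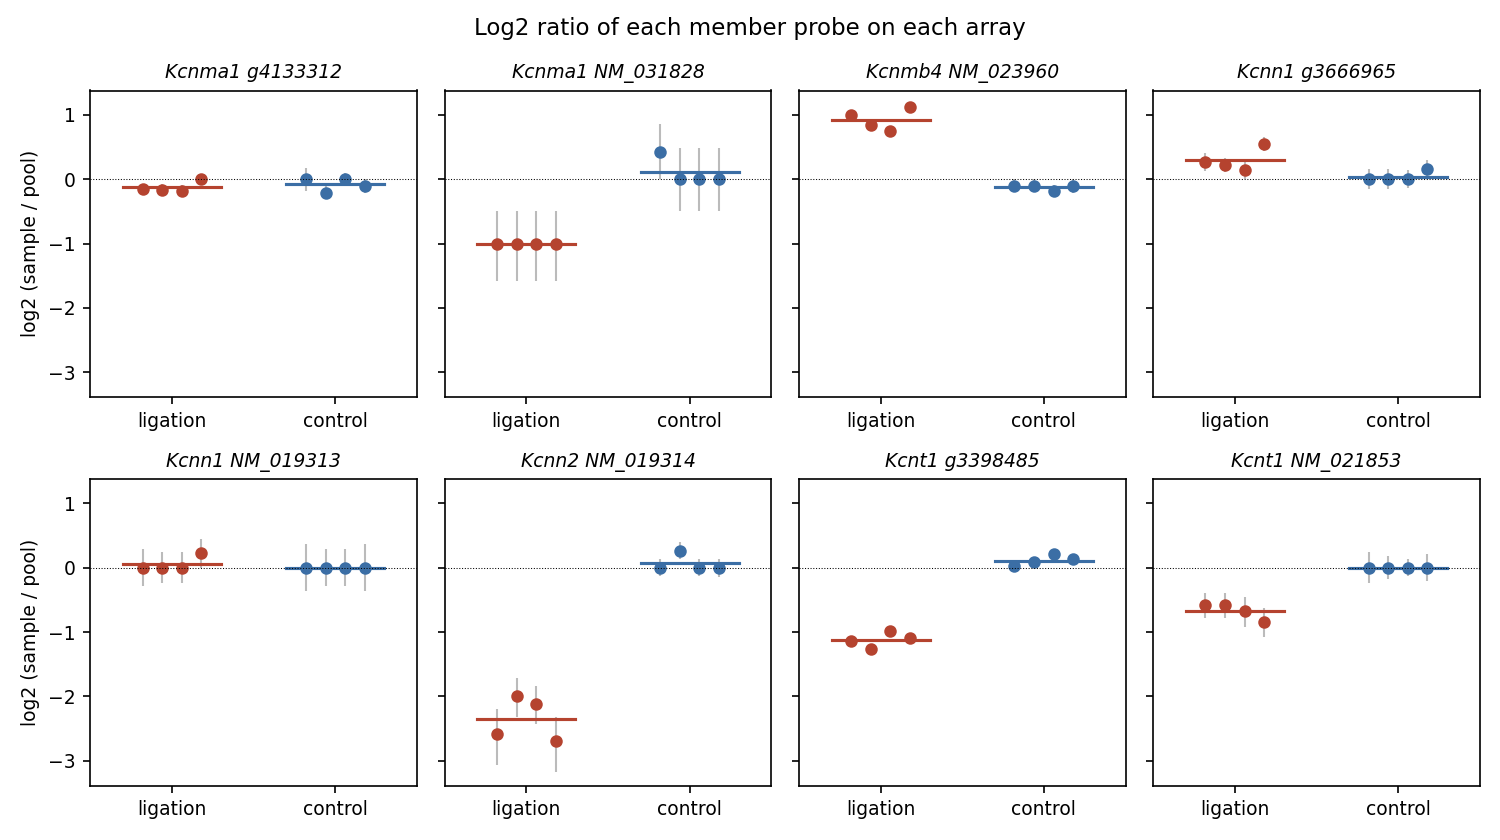
Log2 ratio of sample over pool (y axis) for each of the 8 channel probes on each array, ligation left of control. Points are arrays, horizontal lines are group means, and grey bars show the range allowed by rounding of the printed intensities; Kcnn2, both Kcnt1 probes, Kcnmb4 and the NM_031828 probe of Kcnma1 have groups that do not overlap.

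Kcnn2, the SK2 pore subunit, had the largest change. Its probe (NM_019314) gave sample intensities of 0.02, 0.03, 0.03 and 0.02 on ligation arrays 1 to 4, against 0.11, 0.12, 0.11 and 0.10 on control arrays 1 to 4. The log2 ratios were -2.58, -2.0, -2.12 and -2.70 in ligation, against 0.00, 0.26, 0.00 and 0.00 in control. Every ligation array lay far below every control array, and the pool channel of the same spot stayed at 0.12 to 0.13 on the ligation arrays and 0.10 to 0.11 on the control arrays. Kcnn2 thus fell 5.34-fold (change -2.42 ± 0.17, SE over 4 and 4 arrays, limma adjusted p = 1.66e-05). With 0.05 added to both channels the change was -1.27, still past the test (limma adjusted p = 4.16e-06). Only 0.858% of all probes changed by more in either direction. Rounding allowed changes of -2.95 to -1.95. In the authors' deposited table the p-value of the ratio within the array was at most 6.05e-18 on the ligation arrays and at least 0.17 on the control arrays.

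Kcnn1, the SK1 pore subunit and close relative of Kcnn2, had no such fall. The brighter Kcnn1 probe (g3666965) had log2 ratios of 0.26, 0.22, 0.14 and 0.54 in ligation, against 0.00, 0.00, 0.00 and 0.15 in control. Ligation array 3 lay below control array 4, so the groups overlapped. The difference passed the test at 1.19-fold (change 0.25 ± 0.09, SE over 4 and 4 arrays, limma adjusted p = 0.0424), but rounding allowed -0.02 to 0.53. It lost its call in 7 of 14 alternatives, among them the removal of ligation array 1 or 2 or of control array 1, 2 or 3, where the adjusted p was 0.0619 to 0.0958. For this probe the authors' within-array p-value was 0.00416 on ligation array 4 and 0.25 to 0.38 on the other ligation arrays. The other Kcnn1 probe (NM_019313), in bin 1 of intensity, had a ratio of exactly 0.00 on 3 ligation arrays and 0.22 on ligation array 4, against 0.00 on all 4 control arrays. It did not pass (log2 0.06 ± 0.05, SE, adjusted p = 0.398, limma), and rounding allowed -0.52 to 0.63. The within-array difference of Kcnn1 (g3666965) minus Kcnn2 was 2.22 to 3.24 on the ligation arrays and -0.26 to 0.15 on the control arrays. The change of Kcnn1 exceeded that of Kcnn2 by 2.67 on the log2 scale (exact permutation test, two-sided, p = 0.0286, n = 4 per group), and 0.0286 is the smallest p that 4 arrays against 4 can give. With 0.05 added to both channels this difference was 1.45. Kcnn2 alone already separated the groups. Both genes were chosen with earlier results of these data known, so the p-value of this difference is a description and not independent support.

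The other 2 genes of the family, of which Kcnn3 is named outside the naming rule to complete it, did not pass. Kcnn3 (SK3) had a log2 change of -0.49 ± 0.38 (SE, adjusted p = 0.319, limma), and Kcnn4 (the intermediate-conductance channel) 0.35 ± 0.17 (SE, adjusted p = 0.124, limma). Both probes were very dim, with mean sample intensities of 0.0157 and 0.0362.

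Kcnt1, the sodium-activated Slack pore, fell on both probes. The brighter one (g3398485) had sample intensities of 0.38, 0.36, 0.44 and 0.23 on ligation arrays 1 to 4, against 0.75, 0.76, 0.90 and 0.79 on control arrays 1 to 4. Its log2 ratios were -1.14, -1.27, -0.98 and -1.09 in ligation, against 0.02, 0.08, 0.21 and 0.13 in control. The groups were far apart and the spread within each was small (SD 0.12 in ligation and 0.08 in control). The fall was 2.35-fold (change -1.23 ± 0.07, SE over 4 and 4 arrays, limma adjusted p = 5.49e-06), and rounding allowed only -1.28 to -1.18. On ligation array 4 both channels of this spot were dimmer, the pool at 0.49 against 0.84 to 0.87 on the other ligation arrays, yet the ratio there lay between those of the others. The second Kcnt1 probe (NM_021853), in bin 1 of intensity, gave -0.58, -0.58, -0.68 and -0.85 in ligation, against 0.00 on all 4 control arrays. It fell 1.60-fold (log2 -0.67 ± 0.06, SE, adjusted p = 4.9e-05, limma), with rounding bounds of -1.08 to -0.27. The change was -0.39 with 0.05 added to both channels and -0.41 under quantile normalization. Its sample intensities touched, at 0.06, 0.06, 0.05 and 0.05 in ligation and 0.06, 0.08, 0.11 and 0.07 in control. The pool channel of this spot was 0.08 to 0.09 on the ligation arrays and 0.06 to 0.11 on the control arrays. Identical printed control ratios hide the spread between arrays, so the standard error leaves part of it out. The rounding ranges of the 2 Kcnt1 probes did not overlap, and their changes differed by -0.56 on the log2 scale (exact permutation test, two-sided, p = 0.0286, n = 4 per group). This comparison between probes of 1 gene was chosen after the values were seen.

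Kcnma1, the BK pore, gave 2 probes with different changes. The brighter probe (g4133312) had log2 ratios of -0.16, -0.17, -0.18 and 0.00 in ligation, against 0.00, -0.21, 0.00 and -0.11 in control, and the groups overlapped. It did not pass (change -0.05 ± 0.06, SE over 4 and 4 arrays, limma adjusted p = 0.519), and its sign turned to 0.13 under quantile normalization between arrays and to 0.26 with the sample channel alone. The pool channel of this spot was 0.17 to 0.19 on the ligation arrays and 0.08 to 0.15 on the control arrays, although the pool was the same RNA.

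The other Kcnma1 probe (NM_031828) had a sample intensity of 0.02 and a pool intensity of 0.04 on all 4 ligation arrays, a ratio of -1.0 each time. On the control arrays its sample intensity was 0.04, 0.03, 0.03 and 0.03, its pool intensity 0.03 each time, and its ratio 0.42, 0.00, 0.00 and 0.00. The pool was the same RNA on all arrays, yet its printed intensity differed between the groups, and that difference is part of the change. The groups did not overlap and the fall was 2.15-fold (log2 -1.10 ± 0.10, SE, adjusted p = 4.86e-05, limma). Identical printed values hide the spread between arrays, so the standard error leaves part of it out, and rounding allowed changes of -2.16 to -0.12. With 0.05 added to both channels the change was -0.41. In the authors' deposited table the within-array p-value was 1.35e-05 to 0.00893 on the ligation arrays and 0.58 to 0.88 on the control arrays. The 2 Kcnma1 probes differed in their change by -1.05 on the log2 scale (exact permutation test, two-sided, p = 0.0286, n = 4 per group), a comparison also chosen after the values were seen, and by -0.36 with 0.05 added to both channels. Their rounding ranges, -0.25 to 0.16 and -2.16 to -0.12, overlapped slightly. Which transcripts of Kcnma1 each probe detects was not tested.

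Kcnmb4, the neuronal BK beta4 subunit, rose. Its probe (NM_023960) had sample intensities of 0.40, 0.34, 0.35 and 0.52 on ligation arrays 1 to 4, against 0.14, 0.14, 0.15 and 0.13 on control arrays 1 to 4. The log2 ratios were 1.00, 0.84, 0.74 and 1.12 in ligation, against -0.10, -0.10, -0.18 and -0.11 in control. All ligation arrays lay above all control arrays, and the rise was 2.06-fold (change 1.04 ± 0.08, SE over 4 and 4 arrays, limma adjusted p = 2.61e-05). Rounding allowed 0.89 to 1.20, and 7.41% of all probes changed by more in either direction. The pool channel of this spot was also somewhat brighter on the ligation arrays, 0.19 to 0.24, than on the control arrays, 0.14 to 0.17.

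The change of Kcnmb4 was set against that of its pore partner within each array. Kcnmb4 minus Kcnma1 (g4133312) was 0.92 to 1.16 on the ligation arrays and -0.18 to 0.11 on the control arrays. The beta4 change exceeded the pore change by 1.09 on the log2 scale (exact permutation test, two-sided, p = 0.0286, n = 4 per group), or by 1.62 when the 2 Kcnma1 probes were averaged. Kcnt1 (g3398485) minus Kcnma1 was -1.10 to -0.80 on the ligation arrays and 0.02 to 0.28 on the control arrays. The changes of Kcnt1 and Kcnma1 differed by -1.18 (exact permutation test, two-sided, p = 0.0286, n = 4 per group), which shrank to -0.38 when the probes of each gene were averaged. In all 6 such within-array differences were computed, and the 1 not yet named, between the 2 Kcnn1 probes, had p = 0.0571 (exact permutation test, two-sided, difference 0.20, n = 4 per group, chosen after the values were seen). Benjamini-Hochberg adjustment over the 6 exact permutation tests gave 0.0343 for each of the other 5 and 0.0571 for this 1. The channel genes were chosen with earlier results of these data known, so all 6 p-values are descriptions and not independent support.

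**Figure D2:**
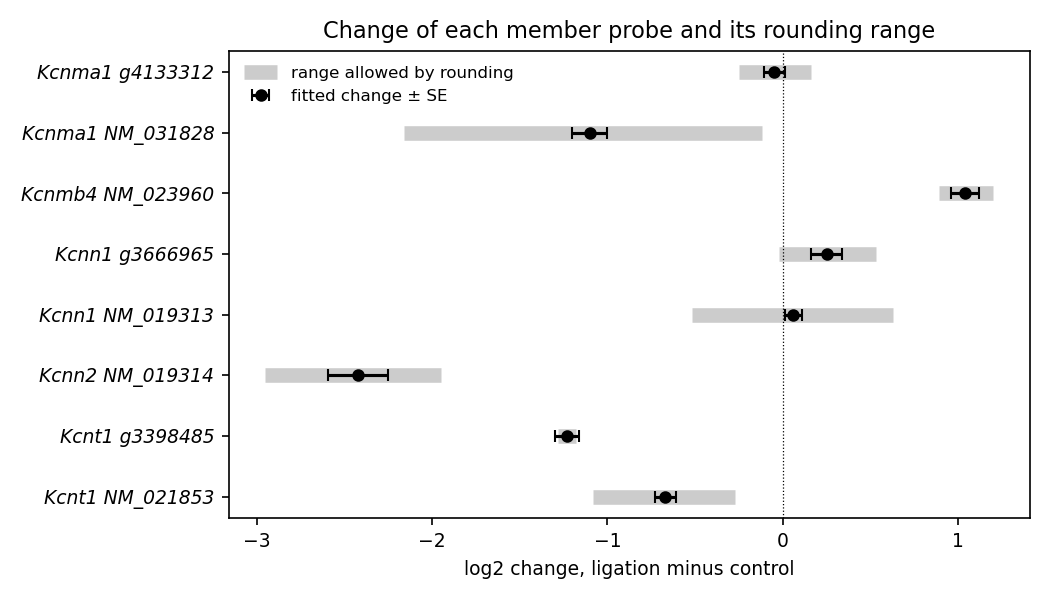
Log2 change, ligation minus control (x axis), of each channel probe. Points with whiskers are the fitted change ± SE (n = 4 arrays per group) and grey bars the range that rounding of the printed intensities allows; the bars exclude 0 for Kcnn2, both Kcnt1 probes, Kcnmb4 and the NM_031828 probe of Kcnma1.

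As background, the control arrays were set against the pool, which is also control RNA. The mean control ratio of the 8 probes lay between -0.12 and 0.11, and 0 of 8 differed from the pool (limma, adjusted p under 0.05; 0.661% of all probes passed). The smallest adjusted p among them was 0.367. Over the 8 channel probes the median absolute log2 change in ligation was 0.86, against 0.25 over all probes, and the median signed change was -0.36, against -0.05. These medians are a description too, as the genes were chosen with earlier results of these data known.

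Upstream sequences of Kcnmb4 and Kcnt1 are shown because these genes moved in opposite directions. They are the 250 bases before the annotated start, from RefSeq's promoter table of GRCr8, with the GC box (GGGCGG on either strand) in capitals. Windows were found for Kcnma1, Kcnmb4, Kcnn2 and Kcnt1, 2 of them for Kcnt1, and none was matched for Kcnn1.
Kcnmb4, chr7:54005102-54005351, minus strand: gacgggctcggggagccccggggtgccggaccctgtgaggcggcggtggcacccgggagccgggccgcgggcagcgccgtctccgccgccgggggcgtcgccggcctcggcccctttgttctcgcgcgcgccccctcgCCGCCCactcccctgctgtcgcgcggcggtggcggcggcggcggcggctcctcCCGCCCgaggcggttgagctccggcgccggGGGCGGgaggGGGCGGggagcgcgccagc
Kcnt1, chr3:29081089-29081338, plus strand: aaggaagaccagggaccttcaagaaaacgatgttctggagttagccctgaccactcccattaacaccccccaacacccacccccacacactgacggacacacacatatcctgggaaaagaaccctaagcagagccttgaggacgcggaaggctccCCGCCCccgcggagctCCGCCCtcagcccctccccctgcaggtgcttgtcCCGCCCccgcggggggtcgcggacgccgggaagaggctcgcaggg
The Kcnmb4 window held 4 GC boxes and the Kcnt1 window 3, while 30.5% of all 33469 windows of this length held at least 1. The Kcnmb4 window was 84.4% G and C with 44 CpG pairs, and that of Kcnt1 64.8% with 16 CpG pairs, against medians of 51.2% and 5 over all windows. Kcnma1 had 5 GC boxes, the Kcnn2 window 0 and the second Kcnt1 window 1. Neither TGACGTCA, the cyclic AMP response element, nor TGANTCA, the AP-1 site, was found on either strand in any of the 5 windows. They were found in 1.59% and 6.34% of all windows.

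Genes that work with these channels were read on the brightest probe of each gene, where 66.1% of 10746 genes passed, 30.2% higher and 35.9% lower in ligation, with a median log2 change of -0.05. Of the BK complex, 3 of 11 listed genes were measured, and besides Kcnma1 and Kcnmb4 this was Kcnmb1, the smooth muscle beta1 subunit, which did not pass (log2 0.17 ± 0.24, SE, adjusted p = 0.571, limma). Of the sodium-activated channels and their partners only Kcnt1 was measured.

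Neuronal sodium channel pores, the route of the sodium that opens Slack, fell in 6 of 7 measured genes and rose in 1, with a median log2 change of -1.70. Scn1a (Nav1.1) fell 5.78-fold, Scn8a (Nav1.6) changed by -1.70 ± 0.06 on the log2 scale (SE, adjusted p = 1.06e-06, limma) and Scn9a (Nav1.7) fell 2.46-fold. Scn3a (Nav1.3), the embryonic-type channel, rose 2.26-fold, and this gene is named as the exception after its value was seen.

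Voltage-gated calcium channel pores, which supply calcium to BK and SK channels, fell in 5 of 8 measured genes and rose in 0, mostly by little (median -0.28). Cacna1g, a T-type channel, had the smallest adjusted p, with a change of -1.75 ± 0.17 (SE, adjusted p = 8.15e-05, limma). Cacna1a (P/Q-type) changed by -0.30 on a probe with a mean sample intensity of 0.045, and 1 of its 2 probes passed. Cacna1b (N-type) changed by -0.14. Cacna1i did not pass (log2 0.00, mean sample intensity 0.0387). The probes of Cacna1a and Cacna1i both lay in bin 1 of intensity, where rounding weighs most, and no rounding bounds were computed for them.

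Calcium store release channels were split. The ryanodine receptors Ryr2 (-0.60 ± 0.08, SE) and Ryr3 (-0.71 ± 0.09, SE) fell, while the inositol trisphosphate receptors rose, among them Itpr2 (0.81 ± 0.07, SE) and Itpr3 (0.26 ± 0.06, SE), so that 3 of 5 genes were higher and 2 lower. Their adjusted p-values ran between 6.08e-05 and 0.00996 (limma). Itpr2 had 3 probes, of which 1 passed. The probes of Ryr2 and Ryr3 were dim, with mean sample intensities of 0.07 and 0.0687, and no rounding bounds were computed for them.

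Calcium clearance genes fell in 8 of 12 and rose in 0, with a median of -0.36. Atp2a2, the endoplasmic reticulum calcium pump, fell 1.85-fold, Atp2b2, a plasma membrane calcium pump, fell 2.19-fold, and Pvalb, the calcium buffer parvalbumin that also marks large sensory neurons, fell 3.98-fold. Calb1 did not pass (log2 0.00), on a dim probe with a mean sample intensity of 0.0262.

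Calmodulin and the enzymes of the SK complex moved both ways, 3 of 8 higher and 3 lower, with a median of -0.02. Csnk2a2 and Csnk2b, subunits of casein kinase 2, which phosphorylates SK-bound calmodulin, rose 1.34-fold and 1.5-fold. Calm3 did not pass on its brightest probe (log2 0.00, adjusted p = 0.985, limma), although 1 of its 2 probes did.

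Kinases known to act on BK channels fell in 6 of 10 and rose in 2, with a median of -0.32. Prkg2, a cyclic GMP-dependent kinase, fell 5.58-fold, Prkce, a protein kinase C, fell 3.40-fold, and Camk2g, a calcium/calmodulin-dependent kinase, fell 2.12-fold.

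**Figure D3:**
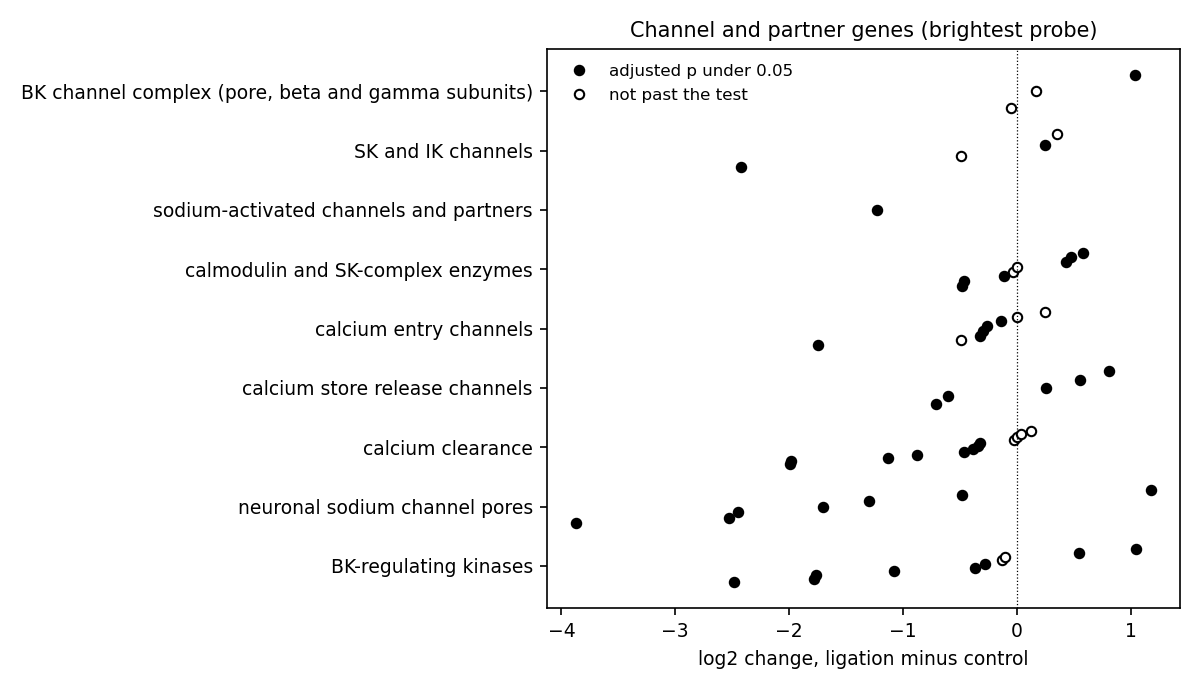
Log2 change, ligation minus control (x axis), of each measured gene in 9 lists of channel subunits and partners, 1 point per gene on its brightest probe. Filled points passed the test (adjusted p under 0.05) and open points did not; the sodium channel pores lie mostly left of -1, and the store release channels lie on both sides of 0.

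Markers of the cells in the ganglion were read in the same way, on the brightest probe of each gene. Over all genes 66.1% passed, 30.2% higher and 35.9% lower in ligation, and the counts below stand beside these shares. General neuronal markers fell in 5 of 6 measured genes (median ratio -1.18 to -1.03 on the ligation arrays and -0.01 to 0.08 on the control arrays). Nociceptor markers fell in 7 of 8 (-1.89 to -1.40 and 0.00 to 0.12), and markers of large neurons in 7 of 8 (-1.75 to -1.69 and -0.07 to 0.00). The summed sample intensity of markers with 8 values was 6.63 to 9.36 in ligation and 9.50 to 11.5 in control for the general list, 23.7 to 30.0 and 76.0 to 77.4 for nociceptors, and 17.8 to 20.4 and 42.7 to 48.2 for large neurons. Sums here and below were not scaled between arrays, and the median sample intensity was higher on the ligation arrays. In whole ganglia, fewer cells of a type and less RNA per cell cannot be told apart.

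Macrophage markers rose in 6 of 8 genes (median ratio 2.08 to 2.36 on the ligation arrays and -0.29 to -0.12 on the control arrays), with summed intensities of 29.8 to 34.1 in ligation and 4.14 to 4.96 in control. Fibroblast markers rose in 7 of 7 (0.97 to 1.24 and -0.45 to -0.07), with sums of 58.9 to 72.5 and 26.3 to 35.4. Smooth muscle and pericyte markers, of cells in which BK channels are also abundant, rose in 3 of 8 and fell in 1, with sums of 5.76 to 7.93 in ligation and 4.57 to 7.51 in control. Satellite glia markers rose in 2 of 7 and fell in 2 (sums 8.82 to 9.86 and 11.8 to 14.3), Schwann cell markers rose in 3 of 8 and fell in 3 (64.3 to 70.2 and 53.8 to 67.5), and endothelial markers rose in 3 of 6 (6.81 to 9.06 and 7.35 to 8.40). Axotomy markers rose in 6 of 6 (sums 63.0 to 74.0 and 11.9 to 14.8). Their median ratio was 2.67 to 3.07 in ligation and -0.81 to -0.63 in control. By this median the pool channel was the brighter one on every control array, although the pool is also control RNA. Skeletal muscle markers rose in 1 of 7 and fell in 1, with sums of 0.94 to 1.16 and 0.78 to 1.28; their median ratio was -2.84 to -2.63 in ligation and -3.22 to -2.69 in control, so the pool channel was the brighter one on every array. In each list, 0 markers stood under 0.005 on all arrays. Since 66.1% of all genes passed, the mixed or small counts above are not read as a change of the cell type. The part of these markers in the rise of Kcnmb4 or the falls of Kcnn2 and Kcnt1 was not tested.

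The profiles most like each channel gene over the 8 arrays were read from Pearson's r among brighter probes, as a description; 8 arrays in 2 groups give high values to very many genes. For Kcnmb4 they were Maoa (monoamine oxidase A, r = 0.999) and Arl4a (0.998), and among other channel genes Cacna2d1 (the gabapentin-binding calcium channel subunit, 0.998); 929 of 6728 genes reached 0.95. For Kcnn2 they were Parp8 and Mtm1 (both 0.999) and, among channel genes, Kcns3 (0.998), which had a log2 change of -3.13. For Kcnt1 they were Trap1 and Entpd6 (both 0.997) and, among channel genes, Kcnh2 (0.992), which had a change of -1.70. For Kcnn1 they were Tspan13 (0.976), Nedd4 (0.972) and Cacnb1 (0.939). For Kcnma1 (g4133312), whose ratios hardly varied, they were Tnrc6b (0.944), Sema6d (0.901) and Cacnb4 (0.484).

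**Figure D4:**
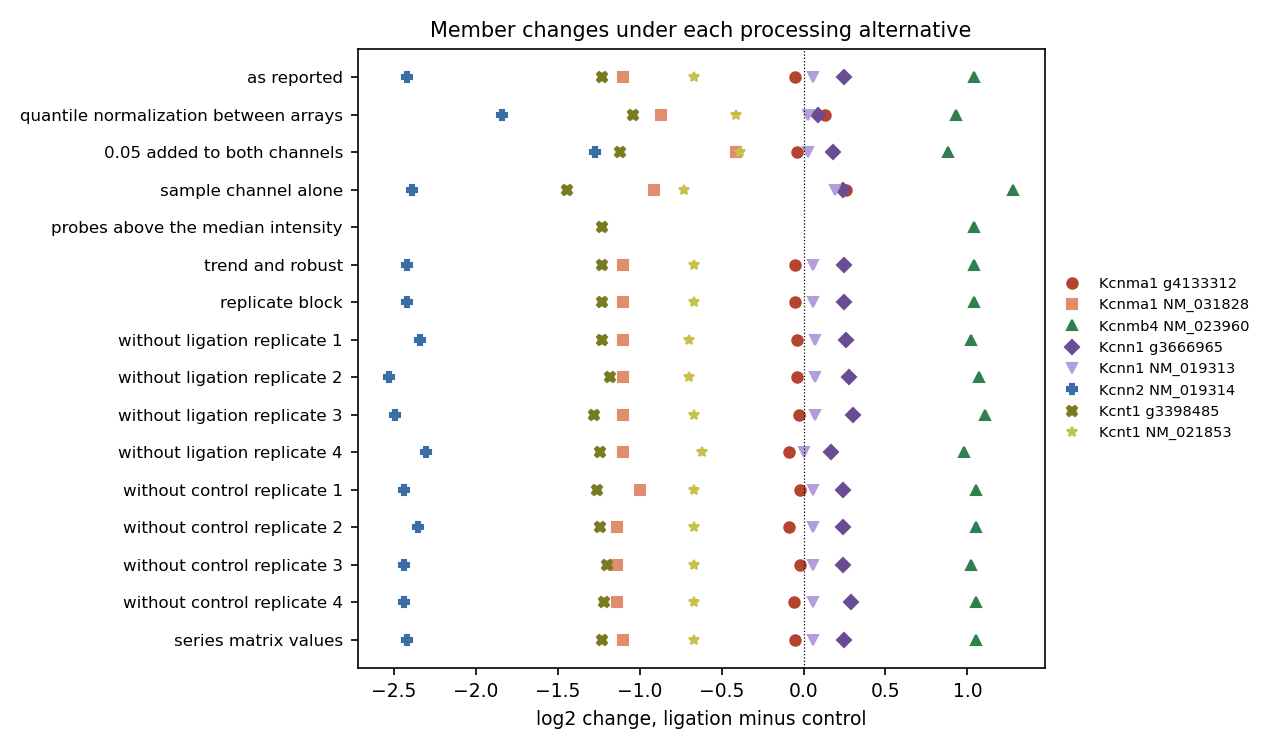
Log2 change, ligation minus control (x axis), of each channel probe under the reported processing and 15 alternatives (y axis). Kcnn2, both Kcnt1 probes and the NM_031828 probe of Kcnma1 stay left of 0 and Kcnmb4 right of 0 in every row where they have a value, and adding 0.05 to both channels brings Kcnn2 to -1.27.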

How the data were processed

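RNA of 4 ligation and 4 control samples was measured on 8 two-colour arrays, 1 sample (Cy5) and 1 common control pool (Cy3) each. The input was 100 ng of RNA, amplified in 2 rounds, per the labels' protocols. Agilent Feature Extraction 8.5.1.1 was used, per the submitters' processing notes. How background and dyes were treated is not given in the sources used here. Both channels' intensity was deposited by the authors, with a p-value of the ratio within each array. A second deposited table of log10 ratios matched these intensities to within 0.005 on the log10 scale. Of the value columns, 0 were left unmapped.

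Log2 ratios were computed from the deposited intensities without further scaling, since each array's median was 0, and spots of 1 probe were averaged. The table held 22491 probes, and 22379 with at least 2 values per group were tested with limma 3.58.1 in R 4.3.3 (lmFit, eBayes, Benjamini-Hochberg over all tested probes, two-sided), checked on simulated data. Other steps ran in Python 3.11.15. Probes were named through RefSeq genes of GRCr8, 2955 by accession, 10331 by symbol, 1902 by a single synonym and 320 by the file's own name; 6983 had none. Rounding bounds move each printed intensity by up to 0.005. The number of arrays limits the precision: the median standard error was 0.119 among probes of the dimmest of 4 equal intensity bins and 0.0492 among those of the highest.

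From each partner list 3 genes were named by lowest adjusted p and 1 by least absolute change, together with all channel probes, Atf3, and the genes with the most similar profiles. The channel genes and all lists were chosen with earlier results of these data known. Alternatives were quantile normalization, an added constant of 0.05, the sample channel alone, a filter on intensity, trend and robust settings, a replicate block, leaving out each array, and the log10 table. The rounding bounds were added after the data were seen. Values of 2 genes of the partner lists are not reported here.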

Additional observations from a re-analysis of the deposited data

Results flagged for a closer look

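Each of the 8 channel probes gave 2 groups of 4 arrays, ligation and control. Groups with the same ratio on all 4 arrays had no range and were not screened. They were Kcnma1 NM_031828 in ligation, and Kcnn1 NM_019313 and Kcnt1 NM_021853 in control. In 6 of the screened groups, 1 array stood apart from the other 3 by a gap above Dixon's critical value, as a share of the group's range. Chance flags about 1 in 20 groups, and for the dim probes the printed steps alone give such gaps when 3 arrays share a value. In ligation these were array 4 for Kcnma1 g4133312 (ratio 0.00, gap 0.89 of the range) and array 4 for Kcnn1 NM_019313 (ratio 0.22, gap 1.00). In control they were array 1 for Kcnma1 NM_031828 (ratio 0.42, gap 1.00), array 3 for Kcnmb4 (ratio -0.18, gap 0.91), array 4 for Kcnn1 g3666965 (ratio 0.15, gap 1.00) and array 2 for Kcnn2 (ratio 0.26, gap 1.00).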

How the results depend on the processing

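Kcnn2, Kcnmb4, both Kcnt1 probes and Kcnma1 NM_031828 kept their direction and their call in every alternative that gave them a test; the adjusted p was at most 0.0194 for these (limma). Adding 0.05 to both channels brought Kcnn2 to -1.27 and Kcnma1 NM_031828 to -0.41 and Kcnt1 NM_021853 to -0.39, by construction. Kcnma1 g4133312 reversed under quantile normalization (0.13) and with the sample channel alone (0.26), without passing. Kcnn1 g3666965 did not pass in either setting (0.09 and 0.24). Moving printed intensities within rounding to bring the groups closest gave 0.16 for Kcnma1 g4133312, -0.02 for Kcnn1 g3666965 and -0.52 for Kcnn1 NM_019313, and -0.12 for Kcnma1 NM_031828, -1.95 for Kcnn2 and -0.27 for Kcnt1 NM_021853; this alternative was chosen after seeing the data. Among all probes 6365 passed under quantile normalization and 8573 of 11174 among probes above the median intensity, against 13105; that filter kept 2 channel probes, which both passed (2), and gave the other 6 no value. Leaving out single arrays gave 12019 to 12730 probes, 5 to 6 of them channel probes, and differences of 1.05 to 1.14 for Kcnmb4 minus Kcnma1, 2.47 to 2.81 for Kcnn1 minus Kcnn2 and -1.25 to -1.15 for Kcnt1 minus Kcnma1. The difference of the Kcnt1 probes had p = 0.0571 with the sample channel alone (exact permutation test, -0.71).

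The deviations of samples sharing a number correlated at r = 0.107, 0.068, 0.138 and 0.164 for numbers 1 to 4. Since 1 of the 4 was under 0.1, the numbers were not taken to pair the samples, but each ligation array correlated best with the control array of its number, a hint from the data that they may. With the replicate block 12577 probes and 6 channel probes passed, and no channel call changed; 4 pairs cannot give a sign-flip p under 0.125.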
